A study of Mus musculus with 8 samples.

Results

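Mitotic entry and the spindle checkpoint were followed through 10 genes listed by name: Mad2l1, Bub1, Bub1b, Ttk, Cdk1, Ccnb1, Pkmyt1, Wee1, Plk1 and Tfdp2. They are 10 of the 20660 genes that could be named on the array through a RefSeq transcript, and 17 probes on 26 spots measure them. Expression was read in 8 whole E8.5 mouse embryos on 1-colour Agilent 8x60K arrays, with an array for each embryo. All 8 embryos were wild-type, from wild-type mothers whose strain is C57bl6/129 in the labels but c57bl/6J in a legend of the study. In 4 of them the father was Eed wt/wt, and in the other 4 he was Eed hypo/wt, that is, heterozygous for the Eedl7Rn5-1989SB allele on the same C57bl6/129 background, a hypomorphic mutation of a core subunit of the histone methyltransferase complex PRC2. The comparison asks whether an allele carried by the father, but not passed on, goes with a difference in the expression of these genes in the offspring. Each father group held 2 female and 2 male embryos.

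A cell enters mitosis when the kinase CDK1, bound to cyclin B1, becomes active. WEE1 and PKMYT1 hold CDK1 back by phosphorylating it, and PLK1 helps to lift that block. The spindle checkpoint then delays anaphase while chromosomes are not yet attached: the kinase TTK (also called MPS1) and BUB1 act at the kinetochore, and MAD2 (the Mad2l1 product) and BUBR1 (the Bub1b product) restrain CDC20, the activator of the anaphase-promoting complex. TFDP2 is a partner of the E2F transcription factors, which drive many genes of the cell cycle, and the early embryo is a rapidly dividing tissue in which these genes are active.

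Promoters of genes of this kind are known for a short element with the letters TTTGAA, the cell cycle genes homology region, and for CCAAT boxes, so both were searched on both strands in RefSeq promoter windows of build GRCm38.p6, from 250 bases before to 50 bases after the transcription start. Windows were found for 8 of the 10 genes, and none was matched for Pkmyt1 or Wee1. TTTGAA was present in the windows of 4 of these 8 genes, in 19 of 49 genes of a wider mitotic list (38.8%) and in 20.2% of the 27025 genes with a window. CCAAT was present in 6 of the 8, against 53.1% of the wider list and 41.1% of all genes. The stretches from 100 bases before to 50 bases after the start are given for 6 genes, to show how differently the letters are placed in genes whose values are described below. Capitals mark TTTGAA or CCAAT, or TTCAAA or ATTGG where the match is on the other strand, and each stretch runs 5′ to 3′ along the gene's strand.
Cdk1: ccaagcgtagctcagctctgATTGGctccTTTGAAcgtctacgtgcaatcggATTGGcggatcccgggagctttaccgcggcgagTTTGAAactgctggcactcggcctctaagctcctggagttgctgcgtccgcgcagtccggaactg
Plk1: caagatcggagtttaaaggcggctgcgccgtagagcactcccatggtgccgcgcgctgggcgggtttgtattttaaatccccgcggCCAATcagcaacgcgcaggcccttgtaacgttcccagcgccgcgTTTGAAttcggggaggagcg
Ttk: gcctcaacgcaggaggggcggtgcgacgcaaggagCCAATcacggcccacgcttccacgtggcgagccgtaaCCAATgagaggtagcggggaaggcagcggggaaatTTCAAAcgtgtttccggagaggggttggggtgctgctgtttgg
Bub1b: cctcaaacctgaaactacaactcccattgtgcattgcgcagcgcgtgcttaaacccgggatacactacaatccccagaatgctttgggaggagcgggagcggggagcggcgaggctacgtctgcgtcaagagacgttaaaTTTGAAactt
Ccnb1: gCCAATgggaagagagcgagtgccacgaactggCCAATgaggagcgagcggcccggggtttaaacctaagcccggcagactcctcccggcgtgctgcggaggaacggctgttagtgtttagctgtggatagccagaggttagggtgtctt
Mad2l1: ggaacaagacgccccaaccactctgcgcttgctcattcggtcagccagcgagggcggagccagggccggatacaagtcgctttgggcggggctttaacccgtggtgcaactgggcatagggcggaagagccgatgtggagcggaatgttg
These stretches lie at chr10:69352863-69353012 on the minus strand for Cdk1, chr7:122159335-122159484 (plus) for Plk1, chr9:83834589-83834738 (plus) for Ttk, chr2:118598111-118598260 (plus) for Bub1b, chr13:100786437-100786586 (minus) for Ccnb1 and chr6:66535121-66535270 (plus) for Mad2l1. Cdk1 held TTTGAA at 2 places, with its first base at positions −71 and −15 from the start, each on the coding strand, while in Plk1, Ttk and Bub1b the match lay after the start, with its first base at positions 31, 8 and 41. In the Ttk window it was on the other strand. Both motifs stood in the same window in Cdk1, Plk1, Ttk and Bub1b, that is, in 4 of 8 genes, against 28.6% of the wider list and 7.97% of all genes. Bub1 and Ccnb1 held only CCAAT, at 2 places each, and neither motif was found in the windows of Mad2l1 and Tfdp2. None of these matches overlapped another. The match of letters is a description of the sequence, and binding was not measured.

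On the arrays, each signal is given as log2 of the background-subtracted intensity minus the 75th percentile of its array, so 0 is the 75th percentile itself, and levels of different probes cannot be set against each other. Probes well above background numbered between 29203 and 39530 per array, and the number of arrays limits the precision. The third embryo of an Eed hypo/wt father stood apart, with a median over all probes of −3.04 where the other arrays had −4.35 to −3.63. The median local background was 50 or 51 on each array with an Eed wt/wt father. It was 30 to 32 for embryos 1 to 3 of Eed hypo/wt fathers and 133 for embryo 4. Negative control spots had a median log2 signal of 2.08 to 2.31 with Eed wt/wt fathers and 2.50 to 3.17 with Eed hypo/wt fathers. The background thus differed between the father groups, and its part in the differences below was not tested. Each slide carried embryos of 1 father group only, so an effect of the slide cannot be told apart from one of the father. The labels do not tie embryos to sires, and 3 of the 4 with Eed wt/wt fathers share the first part of their code. The study's breeding legend lists fewer than 4 sires of either genotype, so embryos of a group may share a father. A supplementary legend for this comparison gives 4 for each genotype, which can be read as offspring or as males. With the code as a random block in the father fit, the correlation between embryos of one code was 0.54. The p-values therefore measure the spread between these embryos, taken as independent, and not between fathers. In a whole embryo, fewer dividing cells and less RNA per cell cannot be told apart. Markers of the E8.5 embryo (7 of 7), of primitive red cells (4 of 4) and of yolk sac endoderm (5 of 5) were well above background on all 8 arrays. Of the 5 markers of decidua and trophoblast on the array, 4 were well above background on all 8 and Tpbpa on none. Their mean was −1.35 to −1.002 with Eed wt/wt fathers and −2.52 to −1.31 with Eed hypo/wt fathers, and the part of this in the values below was not tested.

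All 17 probes of the mitotic genes were well above background on all 8 arrays and passed the filter on low values. None was called between the father groups at a Benjamini-Hochberg adjusted p under 0.01 from limma with a change of at least 2-fold, and 0 of all 33093 tested probes (0%) were. At an unadjusted p under 0.05, 2 of the 17 passed, the single probe of Pkmyt1 and the second probe of Tfdp2, against 4.4% of all tested probes, and both were higher with Eed hypo/wt fathers. Of all tested probes, 2.11% passed that threshold in this direction. The father groups did not overlap for 1 of the 17, Pkmyt1, which was higher with Eed hypo/wt fathers. Of all tested probes, 3.23% had groups that did not overlap, and 1.81% were higher with Eed hypo/wt fathers in this way. The adjusted p from limma was 1.00 for each of the 17.

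**Figure D1:**
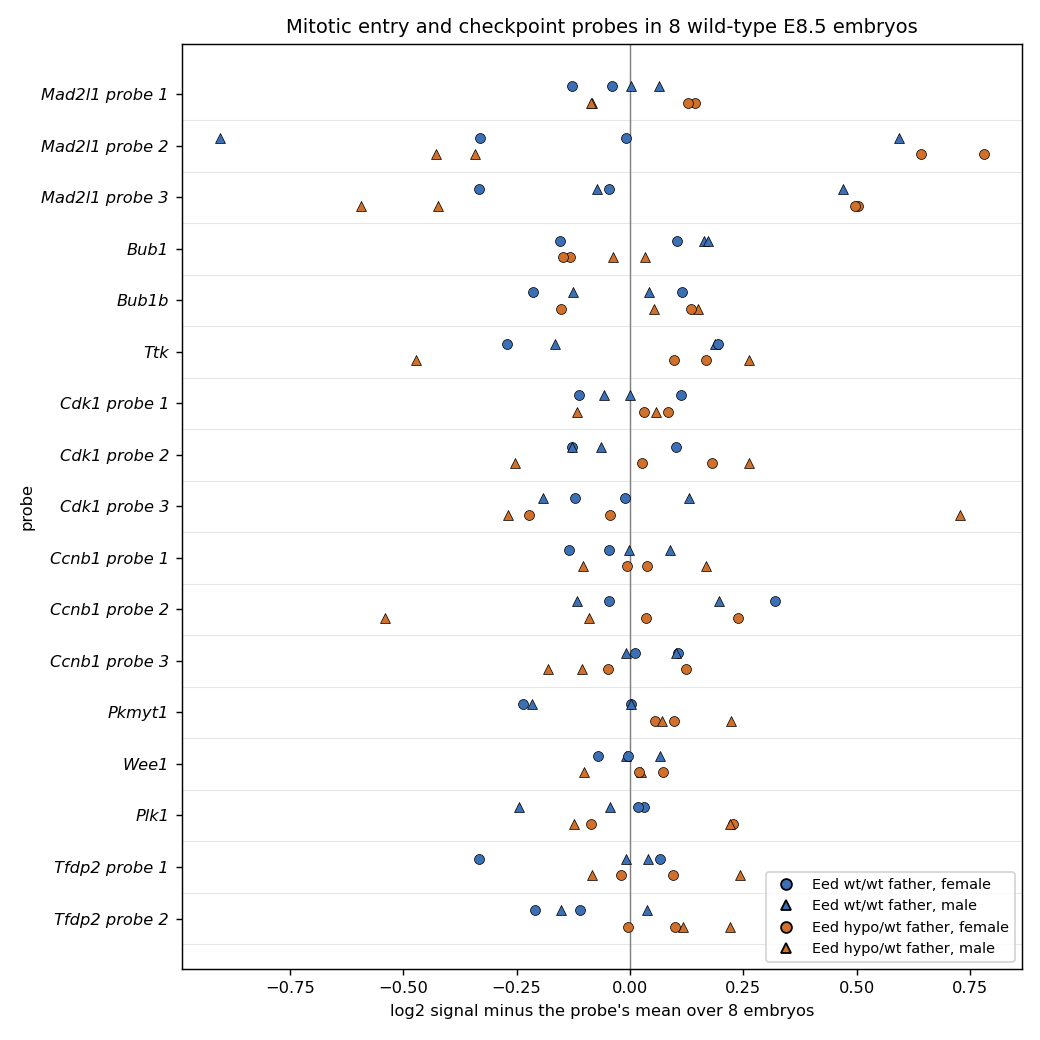
Log2 signal of each of the 17 probes in each embryo, minus the mean of that probe over the 8 embryos. Blue marks stand for Eed wt/wt fathers and orange for Eed hypo/wt fathers, circles for females and triangles for males, and the Pkmyt1 row is the one in which the colours do not overlap.

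The differences, Eed hypo/wt minus Eed wt/wt fathers, ran from −0.18 for Ccnb1 probe 2 to 0.33 for Mad2l1 probe 2, with a median of 0.05 where that of all tested probes was 0.00. Their median size without the sign was 0.11, beside 0.10 for all tested probes. Of the 17, 13 were above 0 and 4 below, but aligning the array medians moved the median of all probes to −0.10 and left 6 above 0. The probes whose sign turned under that scaling were Mad2l1 probe 1, Bub1b, Ttk, Cdk1 probes 1 and 3, Ccnb1 probe 1 and Wee1. The 95% interval of the difference lay inside 2-fold for 16 probes, all but Mad2l1 probe 2, and inside 1.5-fold for 13. Over the 8 embryos the median SD of these probes was 0.16, beside 0.22 for all tested probes.

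**Figure D2:**
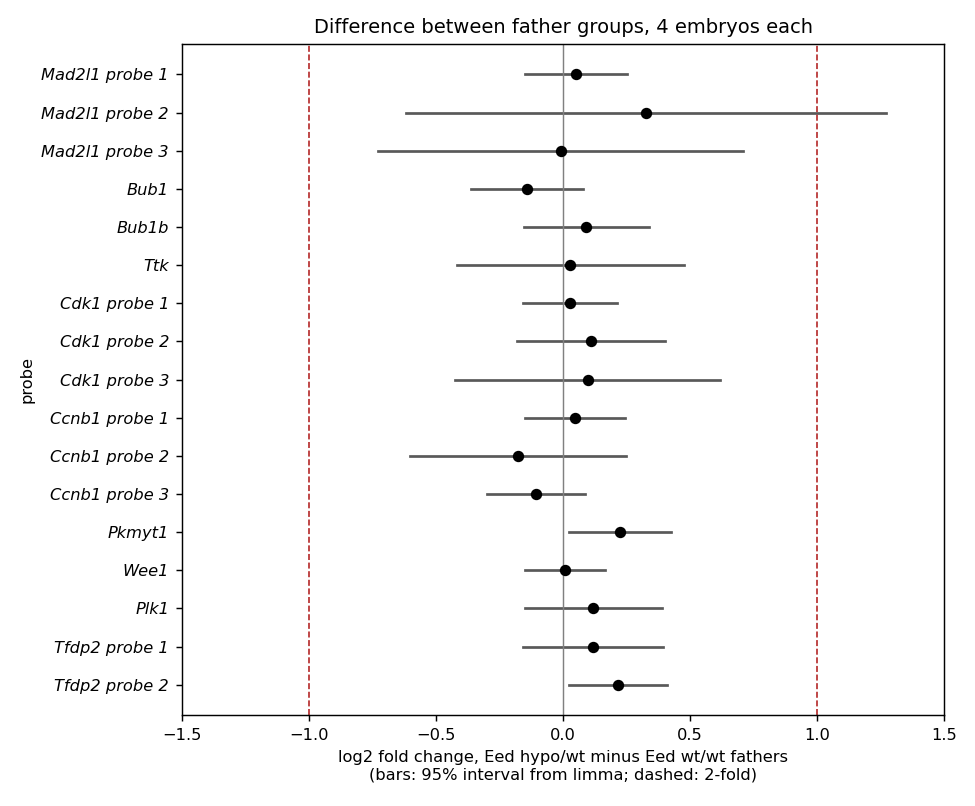
Log2 difference between the father groups (4 embryos each) for the 17 probes, as points with 95% intervals from limma, with dashed lines at a 2-fold change either way. The intervals of Pkmyt1 and of Tfdp2 probe 2 lie above 0, the other 15 include 0, and the interval of Mad2l1 probe 2 crosses the upper dashed line.

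Of the 2 kinases that restrain CDK1, Pkmyt1 was higher with Eed hypo/wt fathers at an unadjusted p only, and Wee1 was not. Pkmyt1 (probe A_66_P102090), whose product holds CDK1 inactive at the membranes outside the nucleus, had log2 signals of 3.16, 3.16, 2.92 and 2.94 with Eed wt/wt fathers and 3.38, 3.21, 3.23 and 3.26 with Eed hypo/wt fathers. Every embryo of the second group lay above every embryo of the first, the nearest values being 3.16 and 3.21. The difference was 0.22 (SE 0.09, 95% interval 0.02 to 0.42), or 1.17-fold, with an unadjusted p of 0.0341 and an adjusted p of 1.00 from limma. With the array medians aligned it became 0.12 with a wider SE of 0.36, the groups overlapped and the unadjusted p from limma was 0.747. Without any single embryo the difference lay between 0.18 and 0.26. Wee1 (probe A_66_P136186), the nuclear kinase of the same step, had 2.29, 2.35, 2.36 and 2.43 with Eed wt/wt fathers and 2.39, 2.38, 2.26 and 2.43 with Eed hypo/wt fathers. The groups overlapped throughout and the SD over the 8 embryos, 0.06, was the smallest of the 17 probes. The difference was 0.01 (SE 0.07, 95% interval −0.15 to 0.17).

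Cdk1, Ccnb1 and Plk1, the engine of mitotic entry, had no probe at an unadjusted p under 0.05 between the father groups. Cdk1, the kinase itself, has 3 probes. The first (A_55_P2048588) gave 3.37, 3.49, 3.60 and 3.43 with Eed wt/wt fathers and 3.54, 3.57, 3.37 and 3.52 with Eed hypo/wt fathers, a difference of 0.03 (SE 0.08, 95% interval −0.16 to 0.21). The second (A_55_P2016652) gave −1.07, −1.07, −0.84 and −1.003 against −0.68, −0.76, −1.19 and −0.91, a difference of 0.11 (SE 0.12). At both probes the father groups overlapped. The third probe (A_55_P2016647) had −3.30, −3.37, −3.19 and −3.05 against −3.45, −3.40, −2.45 and −3.22. There the third embryo of an Eed hypo/wt father stood above all others, and it is the embryo whose array median was also the highest, but the part of that in this value was not tested. The difference at this probe was 0.10 (SE 0.22) with that embryo and −0.13 without it.

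Ccnb1, which encodes cyclin B1, has 3 probes as well, and 2 of them were below 0 in the father difference. Probe 1 (A_55_P2065671) had 4.74, 4.87, 4.83 and 4.96 with Eed wt/wt fathers and 4.77, 4.91, 5.04 and 4.86 with Eed hypo/wt fathers, a difference of 0.05 (SE 0.08). Probe 2 (A_55_P1952256) had 1.34, 1.58, 1.70 and 1.27 against 1.29, 1.62, 0.84 and 1.42, a difference of −0.18 (SE 0.18, 95% interval −0.60 to 0.25), and the lowest value was that of the third embryo of an Eed hypo/wt father, without which the difference was −0.03. That embryo was the highest of all 8 at Ccnb1 probe 1, so the probes of the gene did not order the embryos alike. Probe 3 (A_55_P2128668) lay between 1.14 and 1.26 with Eed wt/wt fathers and between 0.97 and 1.27 with Eed hypo/wt fathers, a difference of −0.11 (SE 0.08). With normexp background correction this became −0.21 (unadjusted p = 0.0386 and adjusted p = 0.625 from limma). A retroposed copy that matches a probe cannot be told apart from the gene here, because probe sequences were not used.

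Plk1 (probe A_51_P344566), the kinase that promotes mitotic entry and acts again at kinetochores and spindle poles, had 5.90, 5.62, 5.89 and 5.82 with Eed wt/wt fathers and 5.75, 6.09, 6.09 and 5.78 with Eed hypo/wt fathers. Embryos 2 and 3 of Eed hypo/wt fathers were above all others, while embryos 1 and 4 lay within the range of the other group. The difference was 0.12 (SE 0.12, 95% interval −0.15 to 0.39).

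Among the checkpoint kinases, Bub1, Bub1b and Ttk did not differ between father groups at an unadjusted p under 0.05. Bub1, a kinase that gathers other checkpoint proteins at the kinetochore, is printed on 10 spots of each array by 1 probe (A_51_P123405). Its log2 signals were 2.85, 3.16, 3.10 and 3.17 with Eed wt/wt fathers and 2.96, 2.87, 3.03 and 2.85 with Eed hypo/wt fathers. The first embryo of an Eed wt/wt father lay with the other group, and the remaining 3 were above all 4 embryos of Eed hypo/wt fathers. The difference was −0.14 (SE 0.09, 95% interval −0.36 to 0.08, unadjusted p = 0.177 from limma). Without that first embryo it was −0.22 with an unadjusted p of 0.0267 and an adjusted p of 1.00 from limma. With array weights it was also −0.22, with an unadjusted p of 0.0222 and an adjusted p of 0.504. Over all single embryos left out, the Bub1 difference lay between −0.22 and −0.11. Among these fits with an embryo left out, its unadjusted p from limma was under 0.05 only without embryo 1 of an Eed wt/wt father.

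The 10 spots of Bub1 give the only repeated reading of a member on the same array. The SD between the spots of an array, 9 or 10 of which were kept, was 0.0195 to 0.0368, and the SD between the 8 embryos was 0.137. The spots share labelling, hybridisation and slide, so their SD covers only the reading of spots within an array.

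**Figure D3:**
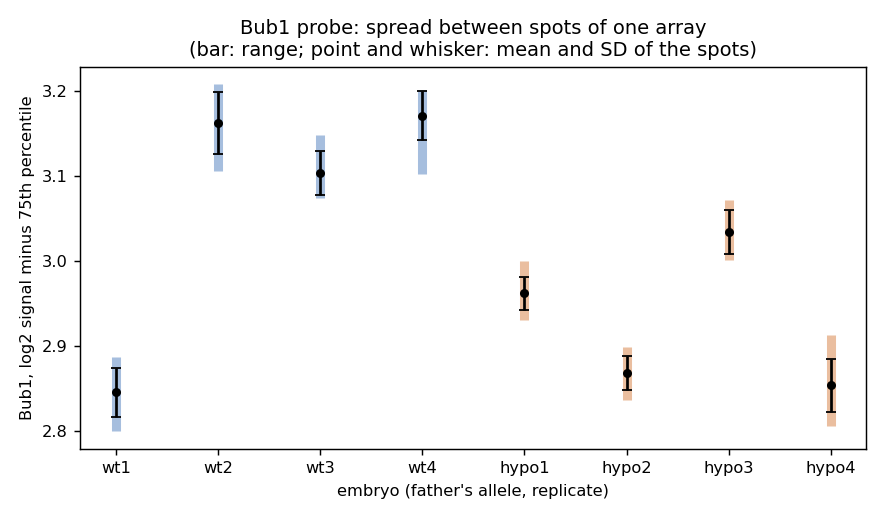
Log2 signal of the Bub1 probe on each array, with the range of its spots as a bar and their mean and SD as a point and whiskers, blue for Eed wt/wt and orange for Eed hypo/wt fathers. Embryo 1 of an Eed wt/wt father, at 2.85, lies with embryos 2 and 4 of Eed hypo/wt fathers, at 2.87 and 2.85.

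Bub1b (probe A_51_P490509) had 2.33, 2.58, 2.65 and 2.42 with Eed wt/wt fathers and 2.69, 2.67, 2.59 and 2.39 with Eed hypo/wt fathers. Although 2 embryos of Eed hypo/wt fathers were the highest, the groups overlapped, and the difference was 0.09 (SE 0.11, 95% interval −0.16 to 0.34). Ttk (probe A_52_P110534), the kinase that starts the checkpoint signal, had −0.45, 0.01, 0.01 and −0.35 against 0.08, −0.08, −0.65 and −0.01. Its highest and its lowest value were both in embryos of Eed hypo/wt fathers, and the difference was 0.03 (SE 0.19, 95% interval −0.42 to 0.47).

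Mad2l1 probes 2 and 3 had the widest spread between embryos of the 17 (SD over 8 embryos 0.61 and 0.44), while its probe 1 had an SD of 0.10, below the median of the members. The high and low embryos were found in both father groups. Its probe 1 (A_55_P2133255) had 4.22, 4.41, 4.31 and 4.35 with Eed wt/wt fathers and 4.27, 4.49, 4.26 and 4.48 with Eed hypo/wt fathers. Probe 2 (A_55_P2179296) had −0.19, 0.74, 0.14 and −0.76 against −0.28, 0.93, −0.20 and 0.79. Probe 3 (A_55_P2138333) had −0.62, 0.18, −0.33 and −0.36 against −0.71, 0.22, −0.88 and 0.21. At all 3 probes the same 3 embryos were the highest, namely embryo 2 of an Eed wt/wt father, a male, and embryos 2 and 4 of Eed hypo/wt fathers, both female. The lowest of them lay above the next embryo by 0.06 at probe 1, 0.60 at probe 2 and 0.52 at probe 3. Ranks of the other 5 embryos differed between the probes, and embryo 4 of an Eed wt/wt father was the lowest of all at probe 2 but the highest of the remaining 5 at probe 1. For Cdk1 and Ccnb1, whose 3 probes were read in the same way, 1 of the 3 highest embryos was shared. The father differences of Mad2l1 were 0.05 (SE 0.09), 0.33 (SE 0.40) and −0.01 (SE 0.31), and the 95% interval of probe 2, −0.62 to 1.27, was the widest of the 17 and includes a 2-fold change. With an embryo left out, probe 1 ranged from 0.01 to 0.09, probe 2 from 0.08, without embryo 4 of an Eed wt/wt father, to 0.58, and probe 3 from −0.18 to 0.19.

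**Figure D4:**
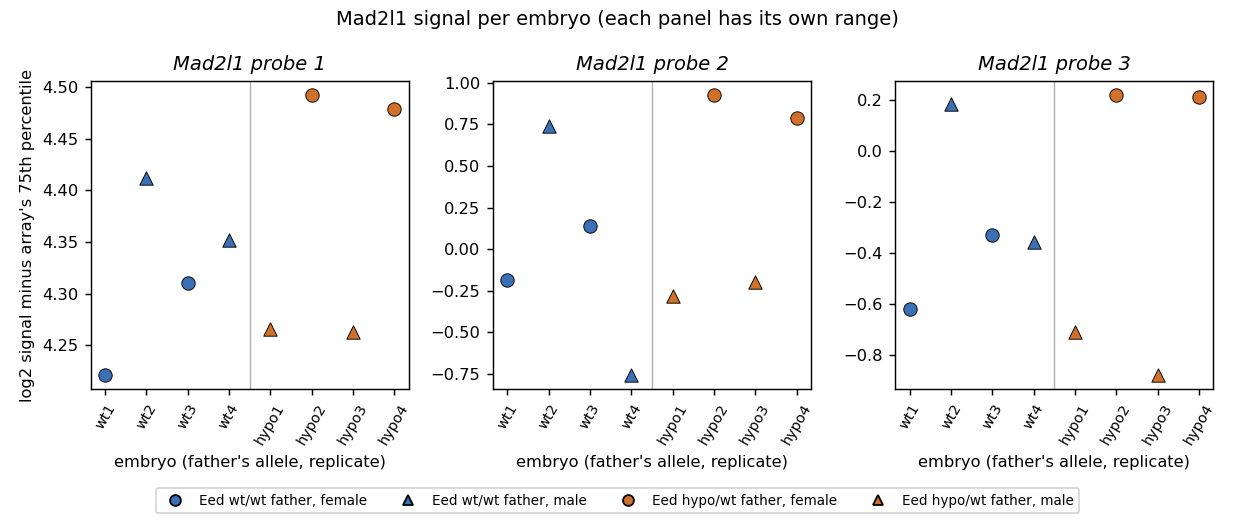
Log2 signal of the 3 Mad2l1 probes in each embryo, with a separate range on each vertical axis, blue for Eed wt/wt and orange for Eed hypo/wt fathers, circles for females and triangles for males. Embryo 2 of an Eed wt/wt father and embryos 2 and 4 of Eed hypo/wt fathers are the 3 highest in every panel.

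Tfdp2, the partner of E2F factors, has 2 probes, and 1 of them passed the unadjusted threshold. Probe 1 (A_55_P2073709) had 0.31, 0.63, 0.71 and 0.68 with Eed wt/wt fathers and 0.88, 0.62, 0.56 and 0.73 with Eed hypo/wt fathers. The groups overlapped, and the difference was 0.12 (SE 0.12, unadjusted p = 0.348 from limma). It was 0.03 without embryo 1 of an Eed wt/wt father and 0.06 without embryo 1 of an Eed hypo/wt father. Probe 2 (A_55_P2073705) had 0.28, 0.34, 0.38 and 0.53 against 0.61, 0.48, 0.71 and 0.59. Here 3 of the 4 embryos of Eed hypo/wt fathers lay above all embryos of Eed wt/wt fathers, and the remaining one, at 0.48, below the highest of them, at 0.53. The difference was 0.22 (SE 0.08, 95% interval 0.02 to 0.41), or 1.16-fold, with an unadjusted p of 0.0323 and an adjusted p of 1.00 from limma. With the array medians aligned it was 0.11 with a wider SE of 0.35 and an unadjusted p of 0.756 from limma. Without any single embryo the difference at this probe lay between 0.18 and 0.26. The unadjusted limma p was then under 0.05 only without embryo 4 of an Eed wt/wt father or embryo 2 of an Eed hypo/wt father. The mean of both probes differed by 0.17 with an unadjusted p of 0.0972 from limma.

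Leaving out single embryos, the count of member probes at an unadjusted p under 0.05 fell from 2 to 0 without embryo 3 of an Eed wt/wt father, and without embryo 1 or embryo 4 of an Eed hypo/wt father. It was 1 without embryo 2 or 4 of an Eed wt/wt father or embryo 3 of an Eed hypo/wt father. It stayed at 2 without embryo 1 of an Eed wt/wt father, but Bub1 then replaced Tfdp2 probe 2. Bub1 was lower with Eed hypo/wt fathers. Only without embryo 2 of an Eed hypo/wt father did the same 2 probes pass. Across the 17 probes, no embryo was high or low throughout. Embryos 1 and 2 of Eed hypo/wt fathers were each the highest at 5 probes, and embryo 1 of an Eed wt/wt father and embryo 3 of an Eed hypo/wt father were each the lowest at 6. The median deviation from the probe means was lowest in embryo 1 of an Eed wt/wt father, −0.13, where that of all tested probes was 0.06. In embryo 3 of an Eed hypo/wt father it was −0.09, where that of all tested probes was 0.10. These embryos had the highest array medians, −3.63 and −3.04, and the part of that in these values was not tested. The median deviation was highest in embryo 2 of an Eed hypo/wt father, 0.10, where that of all tested probes was −0.01.

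Around these members, 62 other genes of mitotic entry, the kinetochore, the anaphase-promoting complex and the E2F family were read by the brightest tested probe of each, and all 62 were tested. None was called between the father groups, and 2 of 62 (3.23%) had an unadjusted p under 0.05, where 4.4% of all tested probes did. Their father differences were above 0 for 40 genes and below 0 for 22, with a median of 0.02. Of all tested probes, 50.7% were above 0. Such counts, also those by group below, depend on the scaling. Aligning the array medians lowered every father difference alike and moved the median of all tested probes to −0.10. Of the activators and partners of CDK1, 9 of 12 were above 0 (median 0.03), of the kinetochore and checkpoint genes 13 of 19 (0.05), of the anaphase genes 10 of 16 (0.03) and of the E2F, DP and pocket protein genes 8 of 15 (0.02).

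Knl1, the kinetochore scaffold to which BUB1 and BUBR1 are recruited, had −0.55, −0.42, −0.49 and −0.60 with Eed wt/wt fathers and −1.06, −0.92, −0.57 and −0.69 with Eed hypo/wt fathers. The groups overlapped only through the embryos at −0.60 and −0.57, and the difference was −0.29 (SE 0.12) with an unadjusted p of 0.0384 from limma. Mybl2, a transcription factor of the complex that binds the homology region of late cell cycle genes, had 4.67, 4.76, 4.81 and 4.55 against 5.05, 4.82, 4.85 and 4.96. These groups did not overlap, the nearest values being 4.81 and 4.82, and the difference was 0.22 (SE 0.09) with an unadjusted p of 0.0384. The count of these 62 genes at an unadjusted p under 0.05 fell to 0 without embryo 1 of an Eed hypo/wt father. It fell to 1 without embryo 1, 2 or 3 of an Eed wt/wt father or embryo 4 of an Eed hypo/wt father. The genes behind the count changed between these fits with an embryo left out. Knl1 passed only without embryo 4 of an Eed wt/wt father or embryo 3 or 4 of an Eed hypo/wt father. Mybl2 passed only without embryo 3 of an Eed wt/wt father or embryo 2 or 3 of an Eed hypo/wt father. Pttg1, which encodes securin, had 4.01, 4.18, 3.90 and 4.86 against 5.07, 4.09, 4.998 and 5.61, a difference of 0.71 (SE 0.35, 95% interval −0.10 to 1.52). The fourth embryo of an Eed wt/wt father and the second of an Eed hypo/wt father crossed over, and the unadjusted p was 0.0786. Without the former the difference was 0.92 (unadjusted p = 0.0338, limma), and without the latter 0.99 (unadjusted p = 0.0101, limma). With each of the other embryos left out, the unadjusted p stayed above 0.05. The smallest difference was then 0.48, without embryo 4 of an Eed hypo/wt father (unadjusted p = 0.189, limma). Mad2l1bp, which helps to release MAD2, differed by 0.17 (unadjusted p = 0.0931, limma) and Anapc10, a subunit of the anaphase-promoting complex, by −0.26 (unadjusted p = 0.0981, limma). The adjusted p from limma was 1.00 for all 5.

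**Figure D5:**
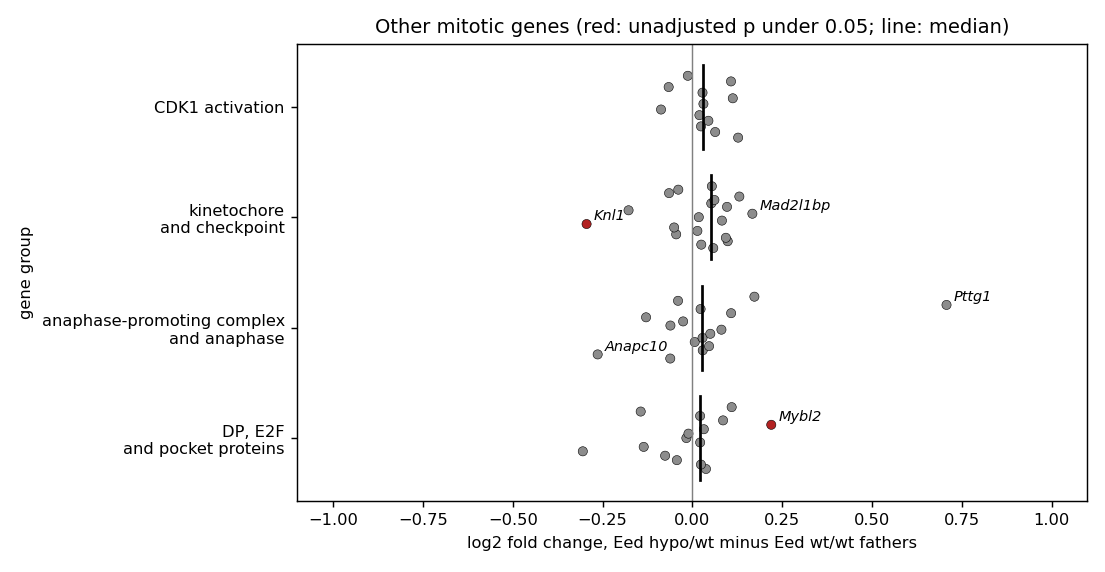
Log2 father difference of 62 other mitotic genes in 4 groups, one point for each gene, with the group median as a line and genes at an unadjusted p under 0.05 in red. The medians lie between 0.02 and 0.05, and Pttg1 at 0.71 is the point farthest from 0.

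Female and male embryos were compared with the father's genotype in the limma fit. None of the 17 probes was called, where 11 of all tested probes (0.0332%) were, and 0 of the 17 had an unadjusted p under 0.05, where 3.28% of all did. The differences, female minus male, ran from −0.20 for Cdk1 probe 3 to 0.54 for Mad2l1 probe 2, and the smallest unadjusted p was that of Bub1 (−0.17, SE 0.08, unadjusted p = 0.0748 and adjusted p = 1.00 from limma). Whether the father difference itself varied with sex was asked with an interaction term, which rests on 2 embryos for each sex and father. At an unadjusted p under 0.05, 2 of the 17 probes passed, against 2.23% of all tested probes, and both belonged to Mad2l1. At its probe 1 the father difference was 0.22 in females and −0.12 in males, and at probe 3 it was 0.69 and −0.71, while probe 2 had 0.88 and −0.23 with an unadjusted p of 0.156 for the interaction. The adjusted p of the interaction was 0.996 for each of the 3 probes (limma).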

How the data were processed

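RNA of 8 single E8.5 embryos was labelled with Cy3 and hybridised to SurePrint G3 Mouse GE 8x60K arrays. The authors extracted spots with Agilent Feature Extraction 11.0.1.1 (version per the submitters' processing notes), and the deposited intensity of each spot has its background subtracted and spatial trends removed, with no scaling across arrays. A deposited table covering the series holds the same intensity within 0.497% and served as an alternative, and 0 columns of sample values were left unused. The methods name neither the percentile of their shift nor the test.

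After control and outlier spots were dropped, each array's 75th percentile was subtracted from its log2 intensity and replicate spots were averaged. A probe was tested if its mean was above the lowest 20% and at least 4 of 8 arrays had it well above background, which left 33093 of 55681. Groups were taken from the sample titles and compared with limma 3.58.1 (R 4.3.3, data.table version 1.17.8), with Benjamini-Hochberg adjustment over all tested probes. The script was tested on simulated data. Of 28685 probes with a RefSeq accession, 27235 were named through RefSeq annotation (GRCm38.p6, for names). Figures and summaries used Python 3.11.15, numpy 2.4.6, pandas 2.3.3 and matplotlib 3.10.9.

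The members and gene lists were chosen with earlier results of these data known. All 10 members were named with all their probes, and of the wider list all called genes and the 5 with the smallest unadjusted p. The alternatives were medians aligned, quantile normalization, normexp (offset 50, on the median spot signal and local background, since the scanner files read here hold no mean signal column) followed by quantile normalization, the series table, other filters, the replicate number, sex or embryo code in the fit, other moderation, array weights, and each embryo left out.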

Additional observations from a re-analysis of the deposited data

Results flagged for a closer look

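The father difference of Mad2l1, Eed hypo/wt minus Eed wt/wt fathers, differed between female and male embryos at 2 of its 3 probes by the interaction term of limma, before adjustment. At probe 1 the father difference in females exceeded that in males by 0.337 on the log2 scale (SE 0.13, unadjusted p = 0.0481 from limma, adjusted p = 0.996). At probe 3 it exceeded it by 1.40 (SE 0.30, unadjusted p = 0.0046 from limma, adjusted p = 0.996). Both females of Eed hypo/wt fathers were above both females of Eed wt/wt fathers at these probes, and both males of Eed hypo/wt fathers were below both males of Eed wt/wt fathers. Each of the 4 combinations of sex and father holds 2 embryos, and 2.23% of all tested probes passed the same unadjusted threshold. Dixon's test, run at the 17 probes within each father group, flagged an embryo in 0 of 34 groups of 4. With only 4 values in a group it can flag only an extreme embryo, so it cannot show that none stood apart. Leaving out a single embryo moved the father difference at some probes, as described above for Bub1, Tfdp2 probe 1 and Cdk1 probe 3.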

How the results depend on the processing

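No probe of the members was called between the father groups under any setting tried. Over all probes the count of calls was 0 under each setting, but 1 without embryo 1 of an Eed wt/wt father or without embryo 4 of an Eed hypo/wt father (range 0 to 1). Of all probes, 1455 had an unadjusted p under 0.05, and this count was 479 with medians aligned, 2603 with normexp, 5356 of 55625 with no filter on dim probes, 680 with a random block for the embryo code, 3056 with array weights, and 970 to 3095 with an embryo left out, 3095 being without embryo 3 of an Eed hypo/wt father. The 2 member probes at that threshold became 0 with medians aligned, with no filter or with the code block, 1 with quantile normalization or with probes of a gene averaged, 3 with normexp (Ccnb1 probe 3 added) or array weights (Bub1 added), and 0 to 2 with an embryo left out. The 1 member whose groups did not overlap became 0 with medians aligned. In the wider list the 2 genes became 0 with medians aligned, no filter, sex in the fit or the code block, 1 with quantile normalization, 3 with normexp, and 0 to 2 with an embryo left out. The 11 calls by sex became 5 with no filter, 0 where a probe had to be well above background on all 8 arrays, and 4 to 9 when single embryos were left out (4 without any single embryo of Eed wt/wt fathers or embryo 2 of an Eed hypo/wt father, 5 without its embryo 4 and 7 without its embryo 1). The 0 member probes by sex at an unadjusted p under 0.05 became 1 with trended robust moderation, and leaving out single embryos gave 0 to 1.

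Same-numbered embryos of the groups did not deviate together (correlations of their deviations −0.55, −0.05, −0.59 and −0.15). Differently numbered pairs ran from −0.52 to 0.66. The labels tie same-numbered embryos by their number only, and a shared origin was not tested. With the replicate number as a block, 874 probes had an unadjusted p under 0.05 by father, 0 member probes and 1 gene of the wider list, Pttg1, did (unadjusted p = 0.0362, limma), while Knl1 and Mybl2 did not, and 0 probes were called by sex.

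Of 418 values of 22 single probes or genes under 19 settings, 24 changed sign, 12 of them with an embryo left out, and 14 probes or genes kept their sign in all. With medians aligned the father difference became −0.0553 for Mad2l1 probe 1, −0.0141 for Bub1b, −0.0777 for Ttk, −0.0779 for Cdk1 probe 1, −0.0093 for Cdk1 probe 3, −0.0583 for Ccnb1 probe 1 and −0.0974 for Wee1. Mad2l1 probe 3 became 0.0633 with the code block and 0.0449 with array weights, Cdk1 probe 3 became −0.0536 with array weights, Cdk1 probe 1 became −0.0074 with normexp, and Wee1 became −0.0063 with quantile normalization. With an embryo left out, the ranges were −0.18 to 0.19 for Mad2l1 probe 3, −0.0577 to 0.191 for Ttk, −0.0045 to 0.0713 for Cdk1 probe 1, −0.13 to 0.20 for Cdk1 probe 3, −0.00041 to 0.0898 for Ccnb1 probe 1 and −0.0141 to 0.0437 for Wee1. Aligning the medians shifts the father difference of every probe by the same amount, so only small positive differences turned there. The cause of the other changes was not tested. The 95% intervals rest on 4 embryos a group and on the spread of each probe, moderated by limma toward that of all tested probes. All 17 probes were well above background on every array, but some values moved with normexp. The SE of Cdk1 probe 3 was 0.22 in the main fit and 0.09 with normexp.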
